A study of Homo sapiens with 6 samples.

Results

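The NF-kB transcription factor system is described here by 10 genes: the 5 subunits RELA, RELB, REL, NFKB1 and NFKB2, the 3 cytoplasmic inhibitors NFKBIA, NFKBIB and NFKBIE, the nuclear inhibitor-like protein BCL3, and the kinase IKBKB. They were picked by gene name and not by a cut on their values, although earlier results of these data were known. All 10 were found among the 58735 genes of the table. The libraries were made from Hep-G2, a human liver cancer line in long use, and its cells carried either a lentiviral control hairpin (sh-NC, n = 3, genotype given as WT) or a lentiviral hairpin against CLGN (sh-CLGN, n = 3). The product of CLGN is calmegin, which helps proteins fold in the endoplasmic reticulum. Per the study's methods, transduced cells were selected with puromycin, which both groups then share, and the only hairpin listed against CLGN is 1 sequence, so an effect of CLGN loss and an effect of that hairpin cannot be told apart. Neither group received a further drug in the labels, and all 6 libraries carry the same batch entry. The labels do not say that replicates were separate cultures, so p-values measure only the spread between these libraries, which may be technical.

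NF-kB proteins are dimers that bind short kB sites in DNA and switch on genes of inflammation, survival and immunity. In resting cells, inhibitors of the IkB family hold the dimers in the cytoplasm. Signals from cytokine receptors turn on the IKK kinase, which marks the inhibitors for destruction and frees the dimers. Several genes of the system, the inhibitor NFKBIA among them, are themselves switched on by NF-kB, which closes a feedback loop. In liver cells the pathway is known for protecting hepatocytes from death induced by tumor necrosis factor.

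Because NF-kB binds some of its own genes, promoter sequences are shown before the expression values. The RefSeq promoter table (GRCh38.p14, 250 bases before to 50 bases after each gene's listed start) held 7 of the 10 genes. They were RELA, REL, NFKB1, NFKB2, NFKBIA, NFKBIB and BCL3. The listed starts can differ from the gene positions given below. The RELA window (chr11:65663808-65664107) lies wholly before the gene, which starts at 65663094 on the - strand. The listed BCL3 start, 44748708, lies inside the gene, which begins at 44747705. The kB consensus, a motif of 10 letters known by that name, was searched on both strands. It was found in 4 of the 7 promoters (REL, NFKB1, NFKBIA and BCL3) and in 3956 of all 35116 promoters, or 11.3%. The windows of 30 bases around the matches are printed 5′ to 3′ on the strand of the gene, with the matched letters in capitals. They lie at chr2:60881517-60881546 (+) for REL, chr4:102501300-102501329 (+) for NFKB1, chr14:35404811-35404840 (-) for NFKBIA and chr19:44748700-44748729 (+) for BCL3.
REL: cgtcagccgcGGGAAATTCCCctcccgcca
NFKB1: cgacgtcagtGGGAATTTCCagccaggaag
NFKBIA: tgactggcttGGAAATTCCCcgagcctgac
BCL3: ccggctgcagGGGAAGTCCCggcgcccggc
The capitals of NFKBIA are the reverse complement of those of NFKB1, so both promoters hold the same 10 letters on opposite strands of the gene. The REL capitals are 11 letters long, because 2 matches overlap there, and contain that same run of 10. Promoters with 2 or more matches were 2.04% of all promoters. Counted from the start site, with negative positions before it, the match began at -81 in NFKBIA, at -49 in NFKB1, at -47 and -46 in REL, and at 3 in BCL3. A match is a description of the letters and not evidence that NF-kB was bound there in these cells.

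The whole promoter windows of NFKB1 (chr4:102501109-102501408, + strand) and NFKBIA (chr14:35404700-35404999, - strand) are printed because both genes held the same motif letters and had the smallest p-values of the 9 genes tested. Capitals again mark the match.
NFKB1: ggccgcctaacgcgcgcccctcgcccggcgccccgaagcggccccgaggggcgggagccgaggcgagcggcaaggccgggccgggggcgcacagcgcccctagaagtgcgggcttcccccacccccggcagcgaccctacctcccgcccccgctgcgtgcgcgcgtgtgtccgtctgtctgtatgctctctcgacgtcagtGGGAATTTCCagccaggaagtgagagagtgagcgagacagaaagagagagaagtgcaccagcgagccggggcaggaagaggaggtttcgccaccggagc
NFKBIA: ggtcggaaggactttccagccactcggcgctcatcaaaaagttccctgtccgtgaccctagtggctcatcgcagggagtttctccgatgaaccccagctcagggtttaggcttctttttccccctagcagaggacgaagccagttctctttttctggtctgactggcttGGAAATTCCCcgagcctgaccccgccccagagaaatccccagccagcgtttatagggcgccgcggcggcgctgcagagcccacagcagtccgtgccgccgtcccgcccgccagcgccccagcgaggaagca

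The targeted gene was checked first. CLGN stood at 24.1, 21.0 and 26.1 FPKM (fragments per gene, divided by gene length and by library size) in sh-NC replicates 1, 2 and 3, and at 9.48, 8.88 and 8.60 FPKM in sh-CLGN. The groups did not overlap, and CLGN in sh-CLGN was 37.8% of its sh-NC mean (log2 change -1.31, SE 0.081, limma adjusted p = 8.35e-06). Whole reads recovered from the FPKM numbered 14955816 to 16244639 per library. Relative to these read totals, the sizes by which the authors had divided were 0.933 to 0.953 for the sh-NC libraries, and for sh-CLGN 1.07 to 1.08. Across genes, sh-NC replicate 3 differed from the other sh-NC libraries along GC content (Spearman rho -0.64, a description over genes that share libraries), and it held the lowest sh-NC level for 7 of the 10 NF-kB genes. All 10 hepatocyte markers were expressed, with 4 called higher and 5 lower and a summed level of 7411 to 7622 FPKM in sh-NC and 7621 to 8096 FPKM in sh-CLGN. Of 8 leukocyte markers 2 were tested and both were lower, CD3E, MS4A1 and CD68 had at most 3 reads in any library, MS4A1 had 0, and their sum was 70.0 to 77.8 FPKM in sh-NC and 61.3 to 68.6 FPKM in sh-CLGN. Of 5 endothelial markers 1 was tested and was lower, KDR had 0 reads, and the sum was 3.36 to 3.67 FPKM in sh-NC and 2.38 to 2.65 FPKM in sh-CLGN. Of 8 fibroblast markers 6 were tested and called higher, 4 of which were under 1 FPKM in every sh-NC library and so could pass the filter only where they were high, with a sum of 7.63 to 9.11 FPKM in sh-NC and 64.7 to 66.8 FPKM in sh-CLGN and at most 3 reads of DCN. The part of these differences in the NF-kB results was not tested.

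With CLGN knocked down, 7 of the 9 NF-kB genes that could be tested were lower and 0 were higher. Among the lower genes, sh-CLGN stood near the same share of its sh-NC mean for the p105/p50 subunit gene NFKB1 (52.9% of sh-NC), the non-canonical subunit gene RELB (50.7%), the inhibitor genes NFKBIA (55.3%) and NFKBIE (56.8%), and BCL3 (48.0%). RELA (72.9%) and NFKB2 (76.0%) fell less, and NFKBIB and IKBKB did not pass the test. REL was below the filter on low values, at least 1 FPKM in at least 3 libraries. The calls rest on limma on log2(FPKM + 1), with a Benjamini-Hochberg adjusted p no higher than 0.05, a scale that understates the change of genes with low values. In bulk libraries, fewer cells that express a gene and less of its RNA per cell cannot be told apart.

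These counts stand against a broad shift in the transcriptome. Of the 13074 genes tested, 39.0% were called lower and 26.7% higher, so 65.8% were called in either direction. The median log2 change was -0.73 over the 9 tested NF-kB genes and -0.08 over all tested genes. None of the 9 passed a log2 change of at least 1 in either direction, which 6.28% of all tested genes did, 3.19% lower and 3.09% higher. This rests on the pseudocount of 1 for BCL3, which reached -1.04 with a pseudocount of 0.1 and -1.05 with voom. The libraries of the groups did not overlap, with sh-CLGN lower, in 7 of the 9 genes and in 41.5% of all tested genes, and with sh-CLGN higher in 0 of the 9 and in 28.7%. The split of all calls turned on the scaling, from 3496 higher and 5102 lower as deposited to 4956 higher and 3421 lower when scaled by read totals.

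**Figure D1:**
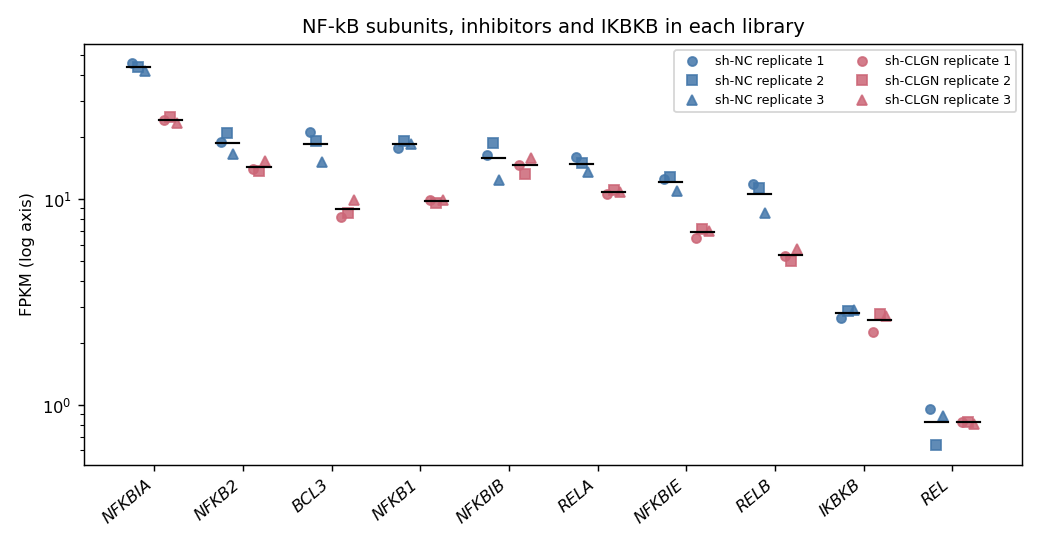
Level of each of the 10 genes in each library, in FPKM on a log axis, with 1 point per library and a bar at each group mean (n = 3). NFKBIA was highest in every library, at 41.9 to 45.7 FPKM in sh-NC and 23.4 to 25.1 FPKM in sh-CLGN, and REL lowest, below 1 FPKM in all 6.

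RELA encodes p65, the subunit with the main activation domain of the classical dimer (ENSG00000173039, chr11:65653596-65663094, - strand, GRCh38). It was read at 16.0, 15.0 and 13.4 FPKM in sh-NC and at 10.6, 11.0 and 10.8 FPKM in sh-CLGN. Every sh-CLGN library was below every sh-NC library, and the spread was wider in sh-NC. The mean was 14.8 ± 1.29 FPKM in sh-NC and fell to 10.8 ± 0.208 FPKM in sh-CLGN (SD, n = 3), a log2 change of -0.42 (SE 0.067, 95% interval -0.57 to -0.26, limma adjusted p = 0.000894). Among all tested genes 22.7% had a lower log2 change. The change was -0.24 when libraries were scaled by read totals and -0.25 after quantile normalization, and the call held in both. A lincRNA, AP001362.2, overlaps RELA on the other strand and had 19 to 40 reads against at least 953 on RELA.

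NFKB1 encodes p105, the precursor of the DNA-binding partner p50, and p105 itself also retains dimers in the cytoplasm (ENSG00000109320, chr4:102501329-102617302, + strand). Its values were 17.6, 19.2 and 18.5 FPKM in sh-NC and 9.87, 9.53 and 9.86 FPKM in sh-CLGN. The 6 libraries formed separate, narrow groups, on 977 to 1791 reads. The mean went from 18.4 ± 0.766 to 9.75 ± 0.197 FPKM (SD, n = 3), a log2 change of -0.85 (SE 0.052, 95% interval -0.97 to -0.73, limma adjusted p = 7.52e-06). This was the smallest adjusted p among the 9 genes tested, and 5.37% of all tested genes had a lower log2 change. Leaving out any 1 library kept the change between -0.88 and -0.83.

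NFKB2 encodes p100, the precursor of p52 in the non-canonical arm and itself an inhibitor of RELB (ENSG00000077150, chr10:102394110-102402529, + strand). It was read at 18.97, 20.9 and 16.5 FPKM in sh-NC and at 14.0, 13.6 and 15.2 FPKM in sh-CLGN. The groups did not overlap, although sh-NC replicate 3 and sh-CLGN replicate 3 lay close together. The mean was 18.8 ± 2.22 FPKM in sh-NC and fell to 14.3 ± 0.860 FPKM in sh-CLGN (SD, n = 3), a log2 change of -0.37 (SE 0.087, 95% interval -0.57 to -0.17, limma adjusted p = 0.00624). The call ended after quantile normalization (-0.15, adjusted p = 0.125) and when scaled by read totals (-0.19, adjusted p = 0.0802).

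RELB encodes the subunit that pairs with p52 in the non-canonical arm (ENSG00000104856, chr19:45001430-45038198, + strand). It stood at 11.8, 11.2 and 8.54 FPKM in sh-NC and at 5.26, 5.005 and 5.73 FPKM in sh-CLGN. The lowest sh-NC library, replicate 3, was still above the highest sh-CLGN library. The mean was 10.5 ± 1.73 FPKM in sh-NC and fell to 5.33 ± 0.370 FPKM in sh-CLGN (SD, n = 3), a log2 change of -0.85 (SE 0.111, 95% interval -1.11 to -0.59, limma adjusted p = 0.000300). NFKB1 and RELB thus shared the same log2 change to 2 decimals, with a wider interval for RELB.

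REL encodes c-Rel, a subunit best known from lymphoid cells (ENSG00000162924, chr2:60881521-60931610, + strand). It was at 0.952, 0.634 and 0.878 FPKM in sh-NC and at 0.824, 0.829 and 0.809 FPKM in sh-CLGN, on 122 to 184 reads per library. The sh-CLGN libraries all lay inside the sh-NC range. The means were 0.822 ± 0.166 and 0.821 ± 0.0104 FPKM (SD, n = 3), and under the filters that kept REL it did not pass the test either.

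NFKBIA encodes IkBα, the inhibitor that NF-kB rapidly re-induces after a signal (ENSG00000100906, chr14:35401511-35404749, - strand). It was the most abundant of the 10 per length, at 45.7, 43.7 and 41.9 FPKM in sh-NC and 24.1, 25.1 and 23.4 FPKM in sh-CLGN. The groups lay far apart relative to their spread, on 896 to 1538 reads. On average it fell from 43.8 ± 1.91 to 24.2 ± 0.883 FPKM (SD, n = 3), a log2 change of -0.83 (SE 0.052, 95% interval -0.95 to -0.71, limma adjusted p = 9.14e-06). A lower log2 change was found in 5.98% of all tested genes.

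NFKBIE encodes IkBε, an inhibitor that acts with slower kinetics (ENSG00000146232, chr6:44258166-44265788, - strand). Its values were 12.5, 12.8 and 11.0 FPKM in sh-NC and 6.44, 7.16 and 7.01 FPKM in sh-CLGN. No sh-CLGN library reached the sh-NC range. The mean was 12.1 ± 0.985 FPKM in sh-NC and fell to 6.87 ± 0.380 FPKM in sh-CLGN (SD, n = 3), a log2 change of -0.73 (SE 0.072, 95% interval -0.90 to -0.57, limma adjusted p = 6.77e-05).

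NFKBIB encodes IkBβ, which holds RELA and c-Rel dimers (ENSG00000104825, chr19:38899700-38908893, + strand). It was at 16.4, 18.6 and 12.3 FPKM in sh-NC and at 14.6, 13.2 and 15.8 FPKM in sh-CLGN. All 3 sh-CLGN libraries lay within the sh-NC range, which sh-NC replicate 3 stretched downward. The means were 15.8 ± 3.18 and 14.5 ± 1.32 FPKM (SD, n = 3), with a log2 change of -0.09 (SE 0.136, 95% interval -0.41 to 0.22, limma adjusted p = 0.562). Without sh-NC replicate 3 the change was -0.25 and passed (adjusted p = 0.0387). NFKBIB also overlaps SIRT2 on the opposite strand, and the strand setting of the counting is not given in the sources used here, so its level is uncertain. SIRT2, a deacetylase, had 235 to 477 reads and went from 2.66 ± 0.214 to 4.39 ± 0.357 FPKM (SD, n = 3, log2 change 0.56, limma adjusted p = 0.000441).

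BCL3 encodes a nuclear IkB-like protein that binds p50 and p52 dimers and can turn them into activators (ENSG00000069399, chr19:44747705-44760044, + strand). It was read at 21.2, 19.2 and 15.2 FPKM in sh-NC and at 8.20, 8.54 and 9.93 FPKM in sh-CLGN. The groups were clearly apart, with sh-NC replicate 3 the lowest of its group and sh-CLGN replicate 3 the highest of its own. The mean was 18.5 ± 3.07 FPKM in sh-NC and fell to 8.89 ± 0.918 FPKM in sh-CLGN (SD, n = 3), a log2 change of -0.97 (SE 0.120, 95% interval -1.25 to -0.69, limma adjusted p = 0.000224). That was the largest change of the 9 tested genes, and 3.54% of all tested genes had a lower one. Without sh-NC replicate 3 it was -1.10, and without sh-CLGN replicate 3 it was -1.05. BCL3 and RELB both lie on chromosome 19, with 241385 bases between the end of BCL3 and the start of RELB.

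IKBKB encodes IKKβ, the kinase that phosphorylates the inhibitors (ENSG00000104365, chr8:42271302-42332653, + strand). It was at 2.63, 2.86 and 2.87 FPKM in sh-NC and at 2.26, 2.76 and 2.70 FPKM in sh-CLGN. The groups overlapped, on 413 to 509 reads per library. The means were 2.79 ± 0.135 and 2.57 ± 0.274 FPKM (SD, n = 3), with a log2 change of -0.09 (SE 0.081, 95% interval -0.27 to 0.10, limma adjusted p = 0.373). Of its IKK partners, CHUK, which encodes IKKα, fell from 5.27 ± 0.358 to 3.82 ± 0.109 FPKM (log2 change -0.38, limma adjusted p = 0.00127), and its change was -0.69 with the GC correction and -0.22 under read totals. IKBKG, the scaffold NEMO, was at 2.25 ± 0.0697 and 2.60 ± 0.558 FPKM (log2 change 0.14, limma adjusted p = 0.336), and passed without sh-CLGN replicate 3 (0.27, adjusted p = 0.0261). MAP3K14, the kinase NIK that feeds the non-canonical arm, was called lower, at 1.76 ± 0.163 and 1.24 ± 0.118 FPKM (log2 change -0.30, limma adjusted p = 0.0168). That call ended with the GC correction (-0.14), under read totals (-0.19) and TPM (-0.32), with no filter, without sh-NC replicate 2 and without sh-CLGN replicate 1.

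**Figure D2:**
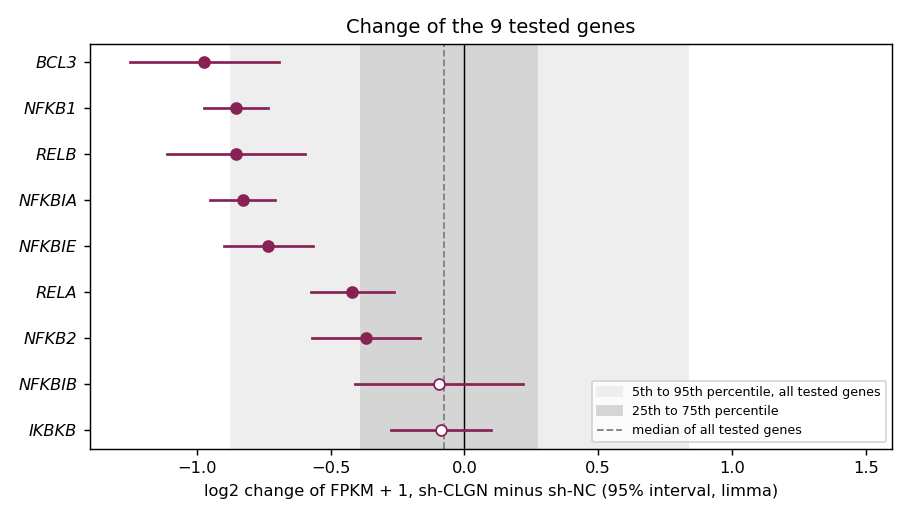
Log2 change of FPKM + 1 for the 9 tested genes, sh-CLGN minus sh-NC, with 95% intervals from limma, over shaded bands for the central range of all 13074 tested genes. From the 5th to the 95th percentile all genes ran from -0.87 to 0.84, and BCL3 at -0.97 was the only one of the 9 outside that band.

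Genes that are rich in G and C bases make up much of this group. The median GC content of their transcripts was 58.8% over the 10 and 60.5% over the 9 tested, against 48.1% over all tested genes, and across genes GC content and log2 change were related at a Spearman rho of -0.32, a description over genes that share the same 6 libraries. With the GC trend removed from each library, 7 of the 9 genes were again called lower, beside 40.9% of all tested genes. Their median log2 change was then -0.55, with -0.08 over all tested genes. After that correction RELA stood at -0.26 (limma adjusted p = 0.0015) and NFKB2 at -0.17 (limma adjusted p = 0.0161). The part of GC content in the deposited values was not tested beyond this. Above 60% GC were BCL3 (67.4%, log2 change as deposited -0.97), RELB (65.4%, -0.85), NFKB2 (62.4%, -0.37), NFKBIE (61.0%, -0.73) and NFKBIB (60.5%, -0.09). Below it were RELA (57.1%, -0.42), NFKBIA (53.1%, -0.83), IKBKB (50.3%, -0.09) and NFKB1 (50.1%, -0.85). REL, which was not tested, had the lowest at 38.7%.

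**Figure D3:**
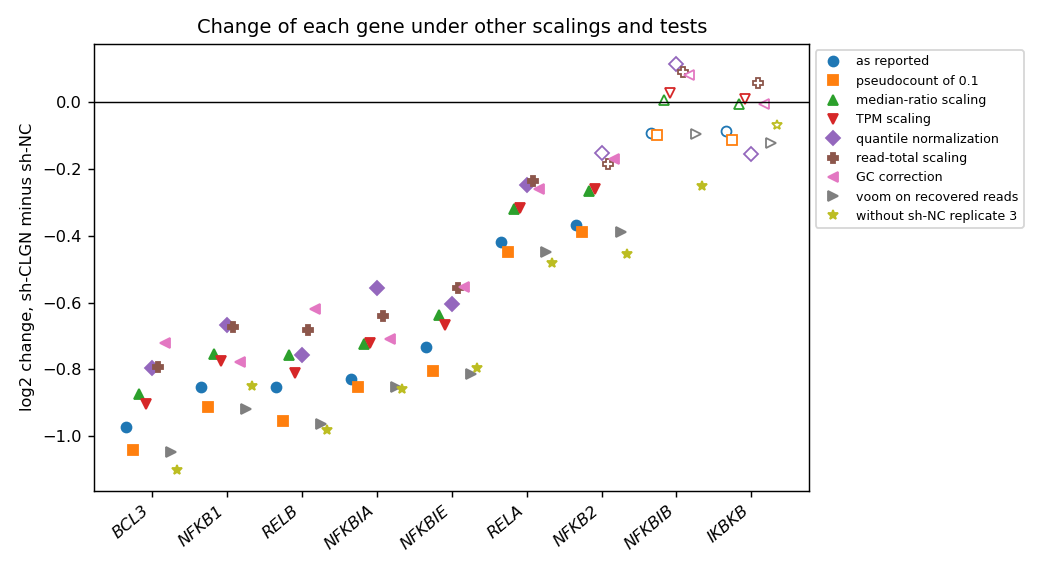
Log2 change of each tested gene as deposited and under other scalings, corrections and tests, with filled symbols for genes that passed an adjusted p of 0.05 and open symbols for the rest. RELA, RELB, NFKB1, NFKBIA, NFKBIE and BCL3 stay below 0 and filled throughout, while NFKB2 opens at -0.15 and -0.19 and NFKBIB and IKBKB sit on both sides of 0, with NFKBIB filled only without sh-NC replicate 3.

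The order of levels differed between the groups. In sh-NC the order of mean FPKM was NFKBIA, NFKB2, BCL3, NFKB1, NFKBIB, RELA, NFKBIE, RELB, IKBKB and REL. The genes from NFKB2 to RELA overlapped with their neighbours and were not separated, as were NFKBIE and RELB, while NFKBIA, IKBKB and REL stood clear. In sh-CLGN the order was NFKBIA, NFKBIB, NFKB2, RELA, NFKB1, BCL3, NFKBIE, RELB, IKBKB and REL, where only NFKBIB with NFKB2 and NFKB1 with BCL3 overlapped. NFKB1 and BCL3 were therefore level with NFKB2 in the controls and well under it in sh-CLGN.

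The subunit pool differed between the groups in composition as well as in size, which is described here with no test. The summed level of the 5 subunits went from 63.4 ± 4.86 to 41.0 ± 1.29 FPKM (SD, n = 3), which is 64.7% of sh-NC. NFKB1 took 27.0%, 28.6% and 31.98% of that sum in sh-NC, against 24.4%, 23.8% and 23.2% in sh-CLGN. NFKB2 took 29.05%, 31.2% and 28.5% in sh-NC, against 34.4%, 34.0% and 35.9% in sh-CLGN. The RELB share was 18.0%, 16.8% and 14.8% in sh-NC, against 12.98%, 12.5% and 13.5% in sh-CLGN. The RELA share was 23.4% ± 1.04 and 26.4% ± 1.08 (SD, n = 3). REL made up 1.31% ± 0.314 and 2.003% ± 0.0871 (SD, n = 3). In each of these 5 shares the groups did not overlap. RELA, REL and NFKB2 had larger shares in sh-CLGN, and NFKB1 and RELB smaller ones. The shares of a library add up to a fixed whole, so they are not separate results. In FPKM, RELA and NFKB2 fell, and REL overlapped between the groups (means 0.822 and 0.821). How often shares of other genes separate was not computed. Among single tested genes, 41.5% did not overlap with sh-CLGN lower and 28.7% with sh-CLGN higher.

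**Figure D4:**
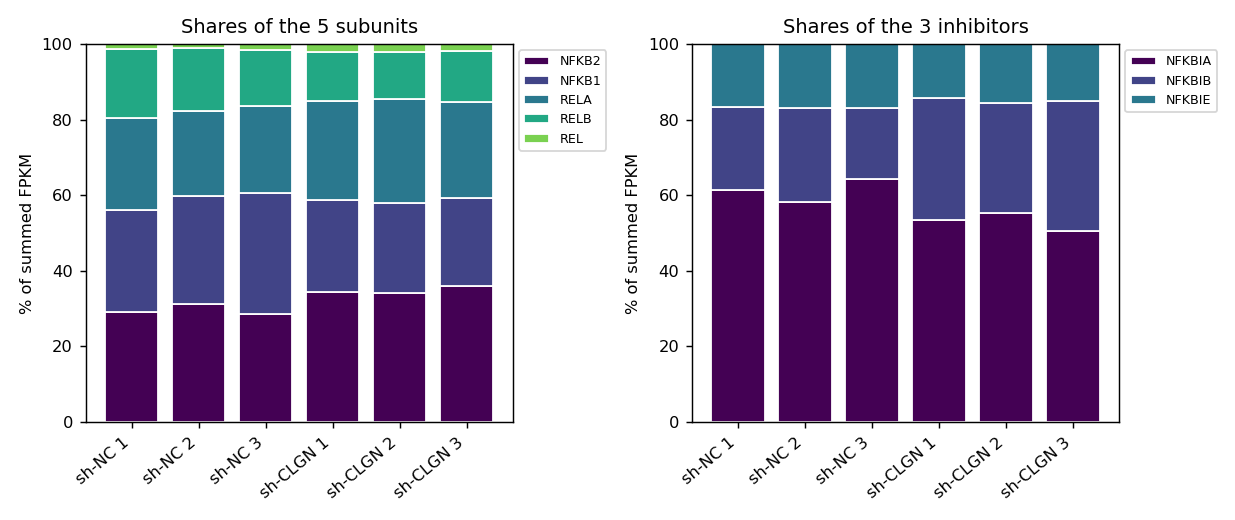
Share of each gene in the summed FPKM of the 5 subunits and of the 3 inhibitors, in percent, with 1 stacked bar per library. NFKB2 holds 28.5% to 31.2% of subunits in sh-NC, against 34.0% to 35.9% in sh-CLGN, and NFKBIB 18.9% to 24.8% of inhibitors in sh-NC, against 28.97% to 34.2% in sh-CLGN.

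The inhibitor sum was lower by much the same degree as that of the subunits. The summed level of NFKBIA, NFKBIB and NFKBIE was 71.6 ± 5.60 FPKM in sh-NC and 45.6 ± 0.527 FPKM in sh-CLGN (SD, n = 3), or 63.7%. NFKBIA made up 61.2% ± 3.03 of it in sh-NC and 53.1% ± 2.34 in sh-CLGN, NFKBIB 21.9% ± 2.93 and 31.9% ± 2.66, and NFKBIE 16.9% ± 0.129 and 15.1% ± 0.750 (SD, n = 3). None of these shares overlapped between groups, but the shares of a library add up to a fixed whole and are not separate results. The level of NFKBIB itself overlapped between the groups (means 15.8 and 14.5 FPKM), and it carries the uncertainty from the SIRT2 overlap. How often shares of other genes separate was not computed. The ratio of summed inhibitors to summed subunits was 1.14, 1.12 and 1.13 in sh-NC, against 1.11, 1.14 and 1.09 in sh-CLGN. These ratios overlapped, with means of 1.13 ± 0.0107 and 1.11 ± 0.0243 (SD, n = 3). They are ratios of RNA per length and carry no measure of protein or of active dimers.

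Ratios of one gene to another within a library do not change when a library is scaled by a single factor, though they move with the GC correction, as for NFKB2 to RELB from a log2 difference of 0.58 to 0.45. Of 5 such ratios compared, all 5 were separated between the groups. Each had a two-sided exact permutation p = 0.1, the smallest that 3 against 3 libraries allow (adjusted over the 5 ratios, p = 0.1). The pairs share genes, and how often other pairs of genes separate was not computed. Among single genes, 41.5% did not overlap with sh-CLGN lower and 28.7% with sh-CLGN higher. NFKB1 to RELA was 1.10, 1.27 and 1.38 in sh-NC, against 0.930, 0.864 and 0.913 in sh-CLGN, so NFKB1 exceeded RELA in every control library and in no sh-CLGN library. NFKB2 to RELB was 1.61, 1.86 and 1.93 in sh-NC, against 2.65, 2.72 and 2.66 in sh-CLGN. NFKBIA to RELA went from 2.86, 2.91 and 3.11 to 2.27, 2.28 and 2.16, a log2 difference of -0.40. The ratios to NFKBIA were higher in sh-CLGN by a log2 difference of 0.75 for NFKBIB and 0.73 for IKBKB, and the NFKBIB ratio shares the SIRT2 overlap.

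The table's transcription factor annotation puts 10 genes in the Rel homology domain family, the 5 subunits and the 5 NFAT factors. The NFAT genes are relatives of the subunits, and those named NFATC1 to NFATC4 are calcium-responsive. NFATC2 was called lower at -0.18 (limma adjusted p = 0.0478), a call that ended under most alternatives, each of the 4 other scalings and the GC correction among them. NFATC3 at -0.05 (adjusted p = 0.541) and NFAT5 at -0.08 (adjusted p = 0.469) did not pass in limma, although NFAT5 did with the GC correction (-0.26, limma adjusted p = 0.00666). NFATC1 and NFATC4 were under the filter and not tested. NFATC1 averaged 0.3004 FPKM in sh-NC and 0.0735 FPKM in sh-CLGN (24.5%, on 8 to 44 reads), and NFATC4 0.0865 and 0.0358 FPKM (41.4%, on 4 to 11 reads). The groups did not overlap for either, as in 41.5% of all tested genes with sh-CLGN lower. That share was not computed for genes under the filter.

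Around the 10 genes, 109 others of the pathway were grouped by role. Counting each once, 87 were tested, of which 37 were lower (42.5%), 19 higher (21.8%) and 31 did not pass, with a median log2 change of -0.10. These shares lie near the background of 39.0% lower and 26.7% higher.

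Of 26 ligands and receptors 7 passed the filter and were tested, with 3 higher, 3 lower and 1 that did not pass (median log2 change 0.06). The lymphotoxin beta receptor LTBR, which starts the non-canonical arm, fell from 20.9, 20.003 and 17.2 FPKM to 10.6, 10.1 and 11.0 FPKM (log2 change -0.81, limma adjusted p = 5.73e-05). TNFRSF1A, the main receptor of tumor necrosis factor, fell by 0.58 on the log2 scale (27.7 ± 0.713 to 18.2 ± 0.664 FPKM). IL18, a cytokine of the interleukin-1 family, rose by 0.64 and the interleukin-1 receptor IL1R1 by 0.63. The third lower gene was the receptor TNFRSF12A (-0.48) and the third higher gene the ligand LTB (0.48). Still called, TNFRSF1A was at -0.34 and TNFRSF12A at -0.20 after quantile normalization, IL18 at 0.41 with the GC correction, and LTB at 0.78 under TPM.

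Of 20 adaptors and proximal kinases 18 were tested, with 9 lower, 1 higher and 8 that did not pass (median -0.19). TICAM1, the adaptor of Toll-like receptor 3, fell from 10.9, 11.3 and 8.43 FPKM to 3.94, 3.05 and 3.82 FPKM (log2 change -1.28, limma adjusted p = 5.27e-05). RIPK1, the kinase that links TNF receptor 1 to IKK, fell from 13.1, 12.4 and 12.6 FPKM to 5.41, 5.05 and 4.63 FPKM (log2 change -1.19, limma adjusted p = 4.79e-06). Both fell more than any of the 9 NF-kB genes on this scale. The exception was TRAF1, an adaptor that NF-kB is known to induce, which rose from 1.08, 0.828 and 0.832 FPKM to 2.07, 2.01 and 2.40 FPKM (log2 change 0.73, limma adjusted p = 0.000301) and passed the filter mainly through sh-CLGN. Its change was 1.25 with voom.

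All 14 kinases and partners of the IKK and NIK arms were tested, with 6 lower, 4 higher and 4 that did not pass (median 0.00). TAB1, a subunit of the TAK1 complex, fell by 0.74 on the log2 scale, and CDC37, a co-chaperone of kinases, by 0.62. MAP3K8, the p105-bound kinase TPL2, rose from 4.32 ± 0.315 to 7.07 ± 0.452 FPKM and TBK1, an IKK-related kinase, from 5.38 ± 0.471 to 8.19 ± 0.776 FPKM (SD, n = 3). On the log2 scale these rises were 0.60 and 0.53. MAP3K7, which encodes TAK1 itself, was called higher at 0.30 (limma adjusted p = 0.00459), a call that ended with the GC correction at 0.06. CDC37 was at -0.33 after quantile normalization, and TBK1 at 0.30 with the GC correction, both still called.

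Of 25 ubiquitin ligases, deubiquitinases and A20 partners 24 were tested, with 8 higher, 6 lower and 10 that did not pass (median -0.01). SPATA2, which bridges the deubiquitinase CYLD to the receptor complex, fell by 0.87 and SHARPIN, part of the linear ubiquitin ligase, by 0.47 on the log2 scale, or -0.23 for SHARPIN with the GC correction. BIRC2, which encodes cIAP1, rose from 7.37, 5.92 and 8.71 FPKM to 14.3, 13.1 and 13.2 FPKM (log2 change 0.81, limma adjusted p = 0.000446), and TAX1BP1, an A20 adaptor, rose by 0.60. The higher count fell to 3 with the GC correction, to 5 without sh-NC replicate 2 and to 3 without sh-CLGN replicate 2. Both the ubiquitin and the cofactor list held 1 gene that passed the filter only through sh-CLGN.

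All 24 atypical inhibitors and nuclear cofactors were tested, with 13 lower, 3 higher and 8 that did not pass (median -0.22). HDAC3, a deacetylase of RELA, fell from 15.1, 15.5 and 14.0 FPKM to 6.82, 6.93 and 6.93 FPKM (log2 change -1.01, limma adjusted p = 5.20e-06). The coactivator CREBBP fell by 0.80 on the log2 scale. KPNA3, an importin that carries NF-kB into the nucleus, rose from 12.9 ± 0.590 to 27.7 ± 0.987 FPKM (log2 change 1.04, limma adjusted p = 4.25e-06), and PDLIM2, a nuclear ubiquitin ligase of RELA, went from 0.770 to 1.44 FPKM on average and was tested only through sh-CLGN, since all 3 sh-NC libraries were under 1 FPKM. The IkB-like genes NFKBIZ and NFKBID, relatives of BCL3, did not pass, at -0.05 and -0.07 (limma adjusted p = 0.416 and 0.479). Their signs turned on the scaling: NFKBIZ was called higher after quantile normalization (0.20, limma adjusted p = 0.0101) and under read totals (0.14, adjusted p = 0.0394), and NFKBID lower after quantile normalization (-0.25, adjusted p = 0.0395).

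**Figure D5:**
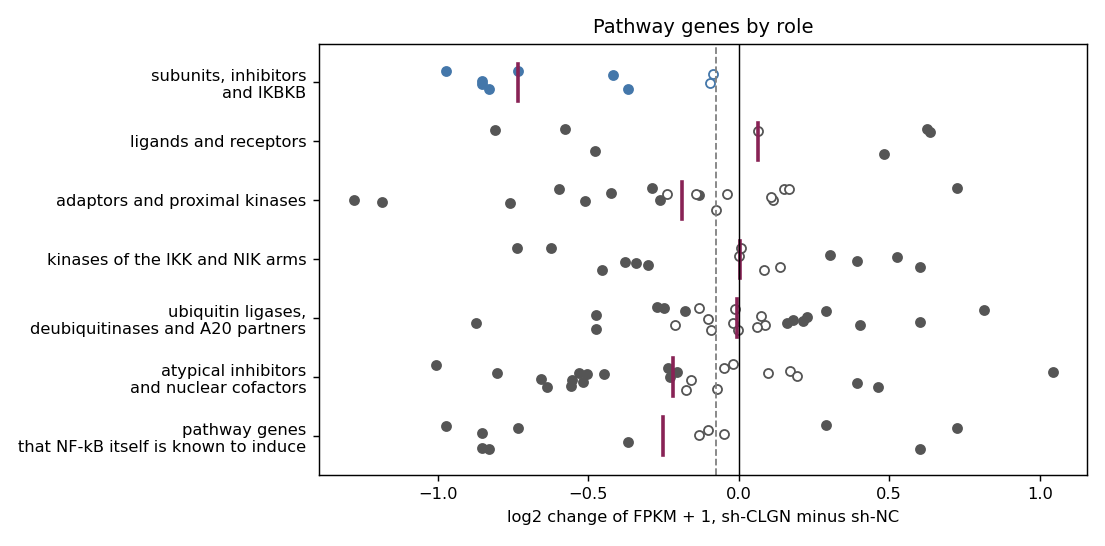
Log2 change of FPKM + 1, sh-CLGN minus sh-NC, for each tested gene by role. A gene has 1 point in each list that holds it. A bar marks each list's median, and a dashed line the median of all tested genes (-0.08). Tested genes that NF-kB is known to induce also appear in other rows. Of these, NFKB1, NFKB2, RELB, NFKBIA, NFKBIE and BCL3 are also in the row of subunits, inhibitors and IKBKB. The subunits, inhibitors and IKBKB have their median at -0.73, and the medians of the other lists lie between -0.25 and 0.06.

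Of 15 pathway genes that NF-kB is known to induce 12 were tested, with 6 lower, 3 higher and 3 that did not pass (median -0.25). The 6 lower genes were all from the set described above, NFKB1, NFKB2, RELB, NFKBIA, NFKBIE and BCL3. The 3 higher genes were TRAF1, MAP3K8 and BIRC3, which encodes cIAP2 and rose from 2.41 ± 0.319 to 3.16 ± 0.0943 FPKM (log2 change 0.29, limma adjusted p = 0.0164), a call that ended with the GC correction at -0.06 and without sh-CLGN replicate 2 at 0.28. TNFAIP3, the feedback inhibitor A20, was at 15.9 ± 0.409 and 14.8 ± 1.14 FPKM (log2 change -0.10, limma adjusted p = 0.197), and its partner TNIP1 at -0.13 and NFKBIZ did not pass either. Without sh-NC replicate 3, TNIP1 was called lower (-0.19, limma adjusted p = 0.0095), and TNFAIP3 changed sign under TPM, quantile and read-total scaling without passing. The shares of this list, 50% lower and 25% higher, stand beside 39.0% and 26.7% over all tested genes. Since every lower gene belongs to the set, the lower share and the median restate values given above. Outside the set, the tested genes of this list were 3 higher and 3 that did not pass.

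Set beside the promoter windows, the 3 genes with a kB match that were tested, NFKB1, NFKBIA and BCL3, had log2 changes of -0.85, -0.83 and -0.97, and REL, which also has one, differed by 0.00. The 3 tested genes with a window and no match were RELA at -0.42, NFKB2 at -0.37 and NFKBIB at -0.09. For RELA the window lies outside the gene as positioned above. RELB at -0.85, NFKBIE at -0.73 and IKBKB at -0.09 had no window and could not be placed. The arrangement of matches and changes was noticed after the values were seen, rests on 7 genes, and was not tested.

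BCL3, with the largest change of the set, had its nearest profiles over the 6 libraries in ARRB2 (Euclidean distance 0.0977 on the log2 scale), MEX3D (0.139) and BTBD2 (0.146). ARRB2, a beta-arrestin, went from 11.6 ± 1.53 to 5.49 ± 0.487 FPKM (SD, n = 3, log2 change -0.95). MEX3D, an RNA-binding protein gene, changed by -0.91, and BTBD2 by -0.98.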

How the data were processed

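RNA was sequenced from 3 sh-NC and 3 sh-CLGN libraries of Hep-G2 cells. The values the authors deposited are FPKM, in 1 table with a row per gene. The submitters' processing notes name HISAT2 2.0.5, featureCounts and GRCh38, and the strand setting and reads shared by similar genes are not given in the sources used here. All 58735 gene positions equalled those of GENCODE 29. FPKM times gene length gave whole reads for 100% of values, within 0.01 of a read. Groups came from the labels, with columns matched by name.

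FPKM are not counts, so the 13074 genes that reached 1 FPKM in 3 or more libraries were tested with limma 3.58.1 in R 4.3.3 (eBayes with an intensity trend) on log2(FPKM + 1), two-sided, with Benjamini-Hochberg adjustment. The study's methods state no test for the sequencing. Ratios used an exact permutation test. Sequences and figures were handled in Python 3.11.15 (numpy 2.4.6, matplotlib 3.10.9, pandas 2.3.3, scipy 1.17.1). The fit was tested on simulated data.

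The genes, lists and tests were chosen with earlier results of these data known. Named were the 10 genes, CLGN, up to 2 largest rises and 2 largest falls called in each list, and the 3 profiles nearest to the gene with the largest change. CHUK, IKBKG, MAP3K14, MAP3K7, NFKBIZ, NFKBID, TNFAIP3, TNIP1, BIRC3, TNFRSF12A, LTB, SIRT2 and the NFAT genes were named after their values were seen. Alternatives were a pseudocount of 0.1, other filters, protein-coding genes only, other scalings (median-ratio, TPM, quantile, read totals), a GC correction (lowess span 0.3), robust eBayes, limma without trend, voom on recovered reads, a replicate block, and each library left out in turn.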

Additional observations from a re-analysis of the deposited data

How the results depend on the processing

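Over 14 alternatives other than leaving out a single library, RELA, RELB, NFKB1, NFKBIA, NFKBIE, BCL3 and CLGN kept their direction and their call. Their log2 changes ranged from -0.45 to -0.24, -0.96 to -0.62, -0.92 to -0.67, -0.85 to -0.56, -0.81 to -0.55, -1.05 to -0.72 and -1.52 to -1.12 in that order. NFKB2 ranged from -0.39 to -0.15 and lost its call after quantile normalization (-0.15, limma adjusted p = 0.125) and when scaled by read totals (-0.19, adjusted p = 0.0802). The cause was not tested. NFKBIB (-0.10 to 0.11) and IKBKB (-0.16 to 0.06) were called under none of the 14. The 14 include the GC correction with sh-NC replicate 3 left out, which was chosen after seeing the data.

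With each library left out in turn, the log2 changes ranged from -0.48 to -0.37 (RELA), -0.98 to -0.77 (RELB), -0.88 to -0.83 (NFKB1), -0.46 to -0.29 (NFKB2), -0.86 to -0.80 (NFKBIA), -0.25 to 0.027 (NFKBIB), -0.80 to -0.69 (NFKBIE), -1.10 to -0.87 (BCL3), -0.12 to -0.02 (IKBKB) and -1.39 to -1.24 (CLGN). The 10 genes then gave 7 to 8 lower calls and 0 higher, the eighth being NFKBIB without sh-NC replicate 3 (-0.25, limma adjusted p = 0.0387). Over all 13074 tested genes, 4566 to 5181 were called lower and 3068 to 3579 higher.

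Scaling moved the median of all genes by 0.09 (median-ratio), 0.11 (TPM), 0.06 (quantile) and 0.16 (read totals) on the log2 scale, and the calls over all genes were 4216 higher and 4180 lower (median-ratio), 4285 and 3923 (TPM), and 4956 and 3421 (read totals). List counts moved more than those of the 10 genes. Ligands and receptors called higher were 8 with no filter and 6 at a mean of at least 0.1 FPKM, where more genes were tested. Adaptors called higher were 2 under median-ratio, TPM and quantile scaling, the GC correction with and without sh-NC replicate 3, and voom, and 3 under read totals, where adaptors called lower were 5. In the ubiquitin list 3 were higher with the GC correction, with and without sh-NC replicate 3, and 3 lower under quantile and read-total scaling. Cofactors called higher were 5 under median-ratio, TPM and quantile scaling and 7 under read totals. With 1 library left out, the higher counts ranged from 1 to 2 for adaptors (2 without sh-NC replicate 3), from 3 to 8 in the ubiquitin list and from 3 to 5 for cofactors (5 without sh-NC replicate 3).

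Same-numbered libraries did not deviate together (correlations of -0.02, -0.05 and -0.15). With 3 libraries per group, this gave no sign that the numbers pair them and cannot exclude it. With the replicate number as a block 8038 genes were called against 8598, 7926 of them shared. Of the 9 genes 7 were called again, all lower, beside 36.4% of all tested genes called lower.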
